A study of Mus musculus with 23 samples.

Results

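Among 12 pools of sorted dendritic cells from control melanomas, 7 held 10 or more counts of 4 genes used as markers of conventional type 2 dendritic cells (cDC2) and 5 held fewer. The sets were chosen by a measured value, the summed raw counts of Cd209a, Clec10a, Mgl2 and Sirpa in each library. A sum of 10 or more made a pool marker-positive and a sum under 10 made it marker-low. The whole series used here held 23 pools, of which the other 11 came from prostaglandin E2 (PGE2)-deficient tumours. All mice were wild-type C57BL/6 animals that had received 2000000 BRAFV600E melanoma cells under the skin. The control cells made PGE2. The PGE2-deficient cells were a Ptgs1/Ptgs2 knockout, which lacks both cyclooxygenases. Tumours were taken on day 6, and conventional type 1 dendritic cells (cDC1) were sorted as living CD45+ cells with MHC-II, CD11c and CD103 on their surface and without CD11b. Each library was a Smart-seq3 profile of 10 sorted cells. Every one of the 4 control mice gave 3 pools, which the labels call technical replicates of the mouse. Whether the melanoma line was 1 clone is not stated in the sources used here. The age of the mice is likewise not given there.

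Conventional dendritic cells take up antigen and present it to T cells, and they form a pair of lineages. The cDC1 lineage depends on the transcription factors IRF8 and BATF3, carries XCR1 and CLEC9A, and cross-presents antigen of dead cells to CD8 T cells. The cDC2 lineage depends largely on IRF4, usually carries CD11b (Itgam) and SIRPα, and mainly primes CD4 T cells. Cd209a, Clec10a and Mgl2 encode C-type lectins, and Sirpa encodes a receptor for CD47. None of the 4 genes is restricted to cDC2. The lectins are also known from macrophages and monocyte-derived cells, and Sirpa from macrophages, monocytes and plasmacytoid dendritic cells (pDC).

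The 4 selection genes lie on 3 chromosomes of the mouse build GRCm38 and all are protein-coding. Clec10a (ENSMUSG00000000318) spans chromosome 11 from 70156197 to 70170834 on the plus strand. Its neighbour Mgl2 (ENSMUSG00000040950) spans chromosome 11 from 70130329 to 70137550 on the same strand. Cd209a (ENSMUSG00000031494) spans chromosome 8 from 3743397 to 3748984 on the minus strand. Sirpa (ENSMUSG00000037902) spans chromosome 2 from 129592835 to 129632228 on the plus strand.

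Clec10a and Mgl2 are near copies, so their counts had to be read together. Their coding sequences were 924 and 1143 bases long in the GENCODE M21 transcripts, and 823 of 910 aligned bases (90.4%) were identical. Of the 875 windows of 50 bases in the Clec10a coding sequence, 242 (27.66%) also occurred in Mgl2. A read lying wholly within such a window cannot be placed in 1 of the genes by its own bases. How the authors' counting treated such reads is not given in the sources used here. One stretch of 60 bases, at coding positions 66 to 125 of Clec10a and 114 to 173 of Mgl2, was the same in both. It is shown to give an example of the shared sequence, 5′ to 3′.
Clec10a and Mgl2, shared: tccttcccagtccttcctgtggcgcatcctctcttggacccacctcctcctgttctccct
Among windows of 60 bases without a gap in the alignment, the least alike still shared 54 bases. Windows with a gap were not compared, so less alike parts may lie there. The least alike window compared covers coding positions 410 to 469 of Clec10a and 458 to 517 of Mgl2. Capitals mark the 6 bases that differ.
Clec10a: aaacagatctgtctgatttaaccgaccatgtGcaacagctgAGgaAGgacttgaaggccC
Mgl2: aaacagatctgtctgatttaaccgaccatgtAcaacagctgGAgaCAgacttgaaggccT
The separate counts of Clec10a and Mgl2 are therefore uncertain.

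The depth of the control libraries set how coarse the division was. Totals ran from 25571 to 57523 counts, with a median of 46257.5. The marker-positive pools held 46855 ± 10993 counts (SD, n = 7) and the marker-low pools 42980 ± 10246 (SD, n = 5). Because the rule used raw counts, depth entered it, and the totals were not tested. In libraries of 10 cells, fewer cells of a type and less RNA per cell cannot be told apart. No control library was a copy of another: chi-squared divided by its degrees of freedom was at least 2.17 for every pair of the 23 libraries.

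Pools are named below by mouse and pool number, so that 4-2 is pool 2 of mouse 4. The selection values are a description, with no test, because they chose the sets. The marker-positive sums were 25 counts in pool 4-2, 24 in 4-1, 17 in 1-2, 15 in 4-3, 12 in 2-1, 10 in 3-1 and 10 in 3-3. The marker-low sums were 8 counts in pool 2-2, 7 in 2-3, 4 in 1-3, 3 in 1-1 and 1 in 3-2. All 3 pools of mouse 4 were positive, so only mice 1, 2 and 3 held pools of both sets.

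The threshold ran through a continuum. Just inside it, pool 3-3 held 215 CPM from the 4 genes, that is, 215 counts per 1000000 of its library total. The exact (Clopper-Pearson) 95% interval was 103 to 395 CPM. Just outside it, pool 2-2 held 145 CPM (62.7 to 286) and pool 2-3 held 171 CPM (68.6 to 351). These intervals overlap. They cover counting error only, since amplified reads need not be independent molecules. At the far ends, pool 3-2 held 19.4 CPM (0.491 to 108) and pool 4-2 held 452 CPM (292 to 667). Pool 3-1 had only 25571 counts, and its 10 marker counts amounted to 391 CPM. With a threshold scaled to depth, pool 3-3 moved to the marker-low set and the sets held 6 pools each.

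**Figure D1:**
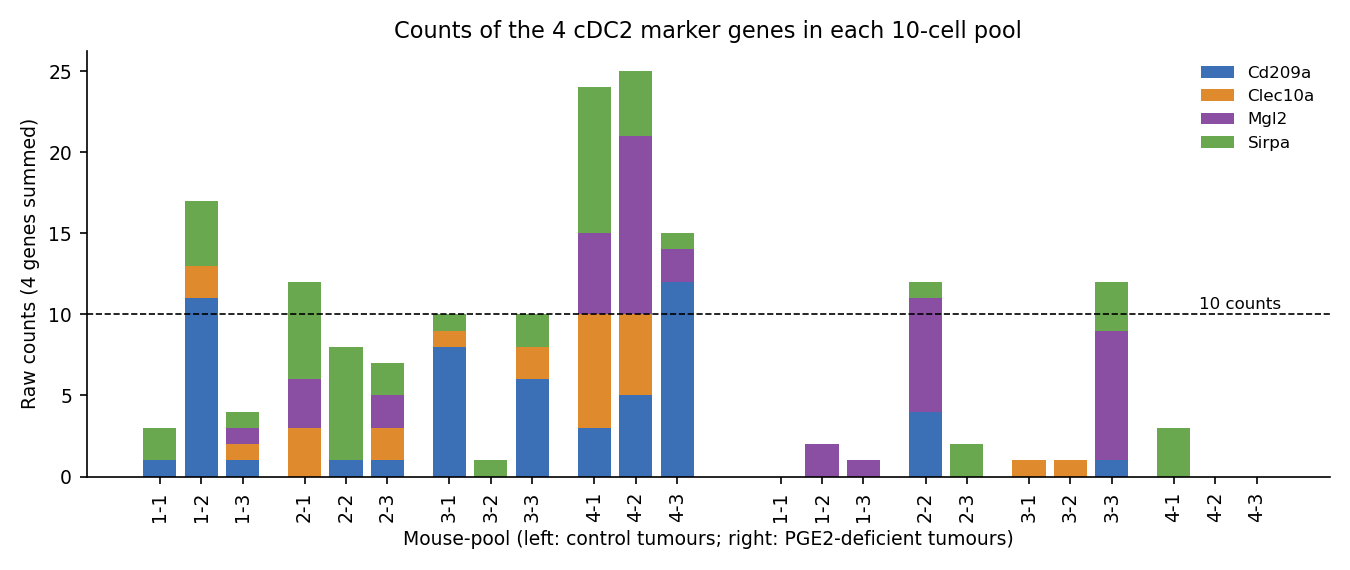
Raw counts of the 4 selection genes in each pool, as stacked bars labelled by mouse and pool, with the 12 control pools on the left, the 11 PGE2-deficient pools on the right and a dashed line at 10 counts. Control sums run from 1 count in pool 3-2 to 25 in pool 4-2, and the genes that make up a sum differ between pools.

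The 4 genes did not mark the same pools. Cd209a had 45 counts in the marker-positive set and 4 in the marker-low set. It led in pools 4-3 (12 counts), 1-2 (11), 3-1 (8) and 3-3 (6), and pool 2-1 was positive with none. Mgl2 had 21 and 3 counts in the sets and reached 11 in pool 4-2 and 5 in pool 4-1, while 3 positive pools (1-2, 3-1 and 3-3) had none. Clec10a had 20 and 3 counts and was highest in 4-1 (7) and 4-2 (5). Sirpa separated the sets least, with 27 and 13 counts, and it was the only 1 of the 4 found in all 12 pools. In the marker-low pool 2-2, Sirpa gave 7 of the 8 counts.

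Across the 12 pools, levels of Clec10a and Mgl2, as log2(CPM + 50), had a Pearson correlation of 0.64 and a Spearman correlation of 0.70. These genes share sequence, as shown above. The Pearson correlations of Cd209a were 0.10 with Clec10a, -0.07 with Mgl2 and -0.22 with Sirpa. All are descriptions over pools that share mice and library depth. Without Sirpa, only 4 pools reached 10 counts.

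Transcripts of other cell types were unevenly spread over the sets. For pDC, the type I interferon-producing dendritic cells, 6 markers were fixed and all 6 were in the table. They summed to 107 counts in the 7 marker-positive pools (0 to 45 per pool) and 2 counts in the 5 marker-low pools (0 to 1 per pool). The sums were 45 counts in pool 3-3, 27 in 4-1, 20 in 3-1 and 15 in 4-2, and these were the only control pools with 10 or more. The other 3 positive pools, 1-2, 2-1 and 4-3, had none. These set sums do not pair pools by mouse. The pools with 10 or more were all from mice 3 and 4, and mouse 4 had no marker-low pool. Within mouse 3, the low pool 3-2 had 1 count, while in mice 1 and 2 the positive pools had none. Set and mouse are thus partly mixed in these sums.

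Siglech, which encodes a pDC lectin, had 40 counts in the positive set and 2 in the low set. Ly6d had 34 and 0, Cox6a2 14 and 0, Klk1 11 and 0, Ccr9 7 and 0, and Pacsin1 1 and 0. The marker-low set was therefore at 0 for 5 of the 6 pDC markers. A count of 0 in that set allows up to 3 counts in its 214898, and covers counting error only. These genes were too low to be tested one by one.

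Counts of the monocyte markers in the table were also found almost entirely in positive pools, and those of the T cell markers in 1 positive pool. Of 4 monocyte markers, Ly6c2 and Fcgr1 were in the table. They summed to 55 counts in the positive set (0 to 29 per pool) and 1 count in the low set. Ly6c2 had 47 and 1 of these and Fcgr1 8 and 0, and only 1 of the pair had a count in pools 3-1, 3-3 and 4-2. Of further monocyte genes, Ccr1 (14 and 17 counts) and Nr4a1 (40 and 41) did not lean to the positive set, while Thbs1 (25 and 0) and Cd14 (13 and 4) did. Of the summed Ly6c2 and Fcgr1 counts, pool 4-1 held 29, pool 3-3 10, pool 2-1 7, pool 3-1 6 and pool 4-2 3. The 6 T cell markers gave 11 counts, all in pool 1-2, with Cd3d at 5 and Trbc1 at 0. No marker-low pool had a T cell count.

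Macrophage transcripts did not follow the division. The 6 macrophage markers in the table, of 7 fixed, summed to 74 counts in the positive set (0 to 71 per pool) and 49 in the low set (0 to 49 per pool). Pool 4-1 held 71 and the marker-low pool 2-2 held 49. C1qb, a subunit of complement C1q, gave 25 and 15 counts in these pools. Mrc1, the mannose receptor, had 14 counts in pool 4-1 and 0 in every other control pool. Pools 4-1 and 2-2 were also the pools with the most Sirpa counts, 9 and 7. Of the B cell markers only Cd79b was in the table, at 0 counts, and none of the 4 neutrophil markers was. The part of these other transcripts in the comparisons that follow was not tested except where a value without those pools is given.

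**Figure D2:**
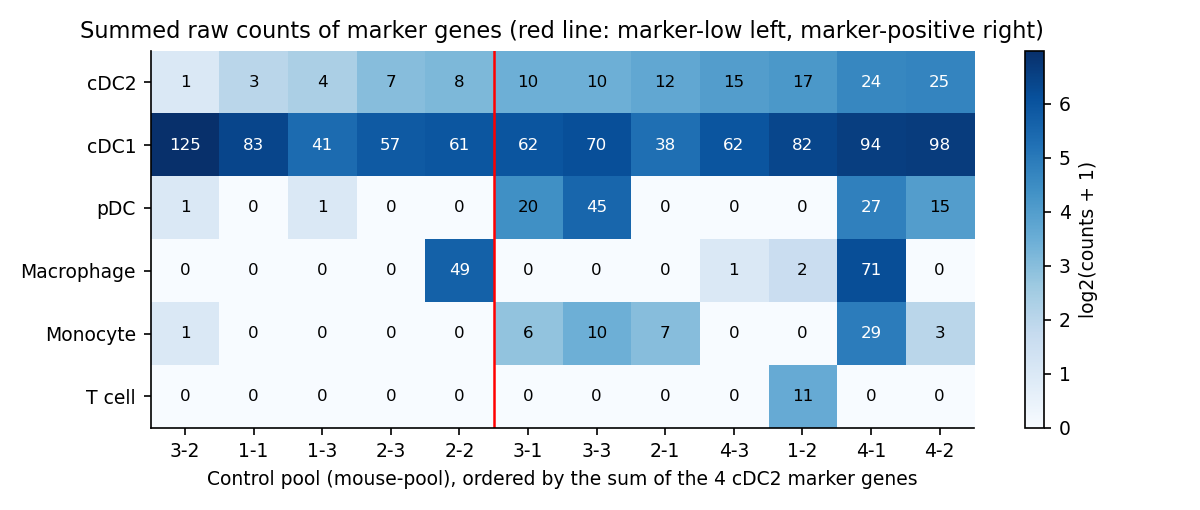
Heat map of summed raw counts of the marker lists for cDC2 (the selection genes), cDC1, pDC, macrophages, monocytes and T cells (rows) in the 12 control pools (columns, ordered by the cDC2 sum), with the count printed in each cell and the colour on a log2(counts + 1) scale. Left of the red line are the marker-low pools; counts of pDC markers of 15 to 45 appear in 4 positive pools, and the macrophage counts of 71 and 49 fall in 1 pool of each set.

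Both sets kept cDC1 transcripts. The 7 cDC1 markers summed to 1611 ± 515 CPM of library total in the marker-positive pools (SD, n = 7, 693 to 2425) and 1704 ± 590 CPM in the marker-low pools (SD, n = 5, 1108 to 2426). These ranges overlap. The lowest of all 12 was the positive pool 2-1, with 38 counts, and the highest sum of counts was 125 in the low pool 3-2. Clec9a, Batf3, Irf8, Itgae and Naaa were detected in all 12 pools. Xcr1, the receptor that defines cDC1, was seen in only 7 of the 12, with 12 counts in the positive set and 18 in the low set. Of the library totals, 327988 counts were in the positive set and 214898 in the low set, so equal levels would give more counts in the positive set.

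The question of the comparison was whether other genes went with the 4 markers among pools. The 4 genes were left out, and 1283 genes with at least 60 counts over the 12 pools and a count in at least 3 of them were tested. Pools were compared within mice with edgeR's quasi-likelihood F-test, with the mouse as a block. The fold change therefore rests on mice 1, 2 and 3, while the filter on counts also used the pools of mouse 4. The sets were made from the same libraries, so a p-value describes how genes vary together among pools, and pools of a mouse are technical replicates. CPM in this comparison are scaled by TMM factors, which adjust totals for composition.

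No gene passed an adjusted p (Benjamini-Hochberg) of 0.05, with 0% of 1283 called higher and 0% called lower in edgeR. The smallest adjusted p was 0.815. At an unadjusted p under 0.05, 31 genes were higher (2.42% of those tested) and 23 lower (1.79%). DESeq2 also called 0 genes, with 28 at an unadjusted p under 0.05 and a smallest adjusted p of 0.395. Positive and low pools did not overlap within each of mice 1 to 3 for 43 genes in the higher direction (3.35%) and 47 in the lower (3.66%). These shares are not read as a result about the sets. The spread between pools was large, with a biological coefficient of variation of 31.3%. A change that misses the threshold at this spread is not shown to be absent.

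The genes named next had the smallest p in the higher direction and none is called. Wfdc17, which encodes a small whey acidic protein of activated myeloid cells, came first. Its 5 marker-low pools had 216 CPM in 1-1, 837 in 1-3, 277 in 2-2, 392 in 2-3 and 215 in 3-2. The marker-positive pools had a lowest value of 504, a median of 984 and a highest of 1170 CPM. Pool 1-3 lay among the positive pools, and the other 4 low pools lay under all of them. The log2 fold change was 1.45 ± 0.35 (SE), with p = 0.000636 before adjustment and an adjusted p of 0.815 (edgeR). Within mice 1, 2 and 3 every positive pool lay above every low pool, as for 3.35% of all tested genes. Without pool 1-3 the log2 fold change was 1.82 with an adjusted p of 0.0217, and this was the only pool whose omission gave a call in the controls.

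Fcer1g encodes the gamma chain shared by Fc receptors and other activating receptors of myeloid cells. Its low pools had 216 CPM in 1-1, 244 in 1-3, 536 in 2-2, 157 in 2-3 and 341 in 3-2. The positive pools had a lowest value of 522, a median of 783 and a highest of 1294 CPM, and the overlap was limited to pool 2-2, the low pool with macrophage counts. The log2 fold change was 1.15 ± 0.36 (adjusted p = 0.983, edgeR). Without the mouse as a block it was 1.42, with an adjusted p of 0.133.

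Slfn5, an interferon-inducible gene of the Schlafen family, had 216, 174, 111, 183 and 269 CPM in the low pools, in the order 1-1, 1-3, 2-2, 2-3 and 3-2. The positive pools had a lowest value of 85.8, a median of 325 and a highest of 1297 CPM. The sets overlapped, and the value of 1297 CPM belonged to pool 1-2, the pool with T cell counts. In the PGE2-deficient tumours, pool 1-2 had 1559 CPM with 0 T cell marker counts. The PGE2-deficient pools with T cell counts had 435 CPM in 2-2, 427 in 3-3 and 889 in 4-2. A part of T cells in these values was not tested. The log2 fold change was 1.49 ± 0.45 and 0.79 without pool 1-2.

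Tcf4 encodes the transcription factor E2-2, which sets pDC identity. Its low pools had 27.0 CPM in 1-1, 34.9 in 1-3, 37.0 in 2-2, 157 in 2-3 and 35.9 in 3-2. The positive pools had a lowest value of 44.7, a median of 257 and a highest of 657 CPM. As counts, pools 3-3 and 4-1 had 30 and 28, and pool 2-1, which had no count of the 6 pDC markers, had 19. The log2 fold change was 2.17 ± 0.72 (adjusted p = 0.983, edgeR). Without the 4 pools with pDC counts, Tcf4 was too low to be tested. With the threshold scaled to depth its log2 fold change was 0.50. Cd164, which encodes a sialomucin, gave 1.83 ± 0.67 and was also too low to be tested without those 4 pools.

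Other genes with an unadjusted p under 0.05 were Ccnd2 (cyclin D2), Ly6a (Sca-1), Ccdc88a (girdin), Rpl22l1, Nop10, Snrpd1 and Prdx1. Ly6a had 73 counts in the positive set and 3 in the low set. Pools 4-1, 4-2 and 4-3 held 34, 11 and 15 of the 73, and mouse 4 does not enter the contrast. Pools 1-2, 2-1, 3-1 and 3-3 held 5, 2, 3 and 3. Prdx1 encodes a peroxidase of the peroxiredoxin family. Its positive pools ran from 470 to 780 CPM and its low pools from 157 to 419 CPM. Its log2 fold change was 0.77 ± 0.31 (adjusted p = 0.983, edgeR).

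**Figure D3:**
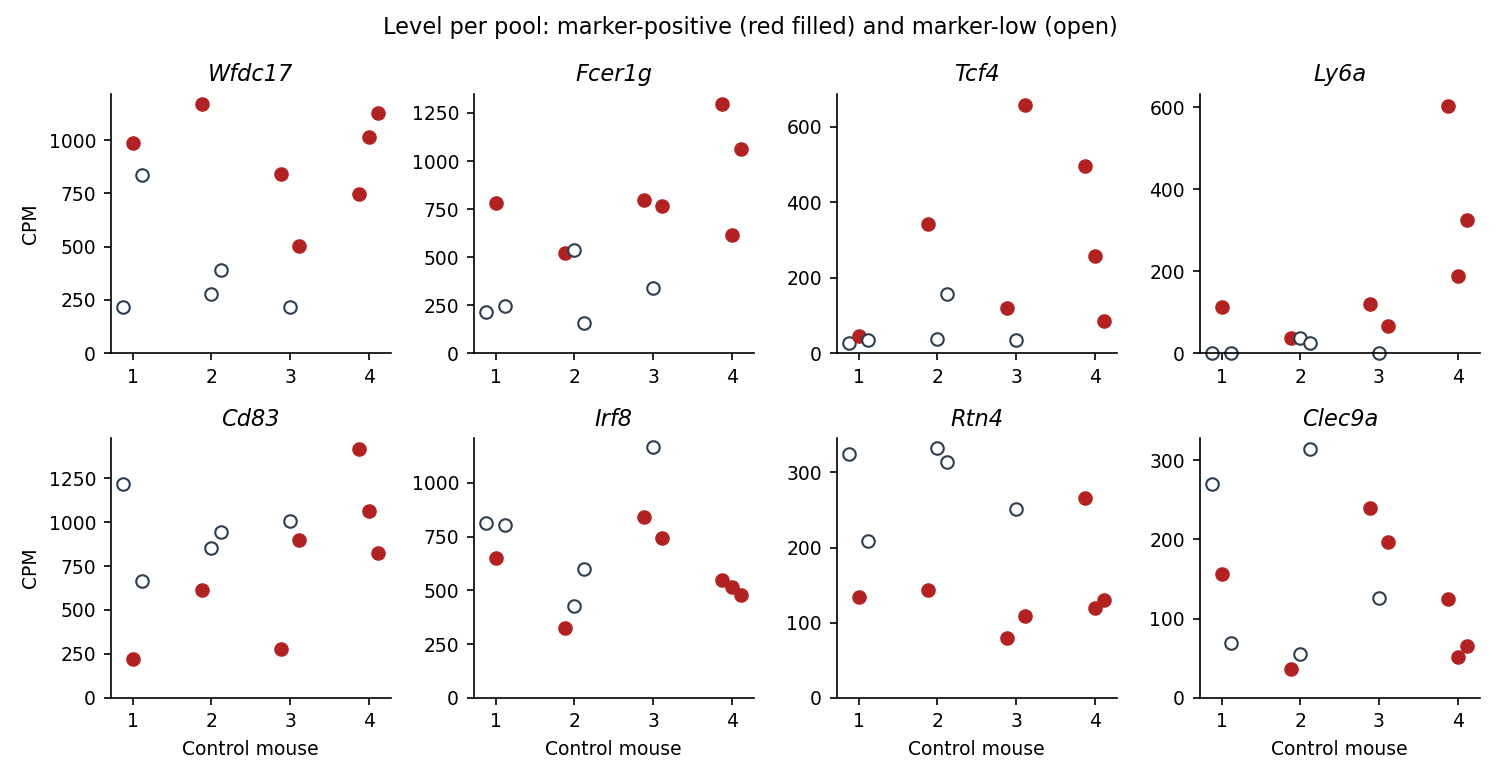
TMM-scaled CPM of Wfdc17, Fcer1g, Tcf4, Ly6a, Cd83, Irf8, Rtn4 and Clec9a (1 panel each) in the 12 control pools, by mouse on the horizontal axis, with marker-positive pools as filled and marker-low pools as open points. Wfdc17 runs from 215 to 1170 CPM, and only pool 1-3 of the low set lies among the positive pools.

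In the lower direction Rtn4, a reticulon that shapes the endoplasmic reticulum, had the smallest p. Its low pools had 324 CPM in 1-1, 209 in 1-3, 333 in 2-2, 314 in 2-3 and 251 in 3-2. The positive pools had a lowest value of 80.0, a median of 130 and a highest of 266 CPM. The value of 266 CPM was that of pool 4-1, and the other positive pools lay under every low pool. The log2 fold change was -1.16 ± 0.42 (adjusted p = 0.983, edgeR). Vcp, an ATPase of protein degradation, gave -1.60 ± 0.57, and its low pool 2-3 lay among the positive pools at 78.5 CPM.

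Cd83, a maturation marker of dendritic cells, gave -0.99 ± 0.36 within mice but -0.27 without the mouse as a block. Its positive pools ran from 224 to 1419 CPM and spanned the low pools, which ran from 663 to 1216 CPM. Atp5g2, a subunit of ATP synthase, and Eif1, a translation initiation factor, are likewise named for a small p and not called. Atp5g2 had 80.0 to 257 CPM in the positive pools and 259 to 405 in the low pools. Eif1 had 350 to 638 and 698 to 1054 CPM. Their log2 fold changes were -1.04 ± 0.38 and -0.61 ± 0.28, each with an adjusted p of 0.983 (edgeR).

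A few genes had high counts in 1 or 2 pools. Apoe, an apolipoprotein made by macrophages, had 61 counts in the low pool 2-2, 38 in the positive pool 4-1, 1 in 3-2 and 0 in the other 9. Its log2 fold change of -6.11 ± 2.86 therefore rests on pool 2-2, since mouse 4 does not enter the contrast. Ccl6, a chemokine of myeloid cells, had 50 counts in pool 4-1, which does not enter the contrast, and 14 in the low pool 1-1. Its log2 fold change was -4.91 ± 2.28 within mice and 0.45 without the block. Lyz2, lysozyme of macrophages and monocytes, had 111 counts in pool 4-1, which again does not enter the contrast, and 4 to 37 in the others. Its log2 fold change was -1.26 ± 0.65, and -0.71 without the low pool 3-2, which held the 37. Pools 4-1 and 2-2 are the ones with 71 and 49 macrophage marker counts, while pools 1-1 and 3-2 had 0.

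Further cDC2 genes gave little to test. Of 40 listed genes, 38 were in the table and 10 passed the filter on low counts. None was called, 6 had a positive and 4 a negative log2 fold change, and their median was 0.30. Over all 1283 tested genes the median was 0.01, with 50.7% positive. Ms4a6c, of the MS4A family, gave 1.50 ± 0.68, and S100a4, a calcium-binding protein, 0.89 ± 0.43, both with an adjusted p of 0.983 (edgeR). S100a4 had 54.1 CPM in the low pool 1-1 and 680 in the low pool 2-3, a range that covers 4 of the 7 positive pools. Fcgr2b, the inhibitory Fc receptor, gave -0.80 ± 0.66.

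The other 28 listed genes in the table were under the filter, so none of their differences was tested. For 22 of them the ratio of counts between the sets lay above the ratio of the set totals, 327988 to 214898, and for 6 at or below it. No such share over all genes under the filter stands beside this, so it is not read as a lean of cDC2 genes. Some of the 22 had very few counts, such as Cx3cr1 with 3 and 0 and Il1rn with 1 and 0. Without pools 4-1 and 2-2, which hold the macrophage counts, 18 lay above and 10 at or below, an alternative chosen after seeing the data. Irf4 had 9 counts in the positive set, 8 of them in pool 4-1, and 5 in the low set. Itgam, which encodes the CD11b that the sort excluded, had 11 and 3 counts, with 8 in pool 4-1. Tmem176b had 13 and 5 counts, with 10 in pool 4-1.

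Some of these genes are also known from monocytes and macrophages. Fcgr3, an activating Fc receptor, had 14 counts in the positive set, 8 of them in pool 4-1, and 9 in the low set, all in pool 2-2. Csf1r, the receptor of the macrophage growth factor CSF1, had 25 and 9 counts and was highest in the same pools, with 10 and 6. Tmem176a, with 16 and 2 counts, was highest in pool 2-1 at 8. Klf4, a transcription factor, had 29 and 9 counts, with 10 in pool 3-1 and 7 each in pools 4-1 and 4-3. Ms4a4c had 51 and 4 counts, and Cd209d, a relative of Cd209a, 8 and 0. Cd300c2, with 7 and 14 counts, Clec12a, with 10 and 17, Lst1, with 16 and 19, and Notch2, with 28 and 24, were among the 6 at or below the ratio.

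Genes of cDC1 identity showed no common shift. Of 31 listed genes 17 were tested, and 8 had a positive and 9 a negative log2 fold change, with a median of -0.06. Irf8, the factor on which cDC1 depend, had the smallest p among them. Its low pools had 811 CPM in 1-1, 802 in 1-3, 425 in 2-2, 601 in 2-3 and 1166 in 3-2. The positive pools had a lowest value of 324, a median of 550 and a highest of 840 CPM. The sets overlapped over all pools, while within mice 1, 2 and 3 each positive pool lay under each low pool. The same held for 3.66% of all tested genes. The log2 fold change was -0.50 ± 0.25 (adjusted p = 0.983, edgeR).

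Clec9a, a receptor for dead cells, gave -0.35 ± 0.66, Naaa, a lipid amidase, 0.05 ± 0.36, and Itgae, the CD103 of the sort, 0.11 ± 0.69. Id2, needed for cDC1 development, gave -0.14 ± 0.39, and Itgb7, the partner chain of CD103, -0.94 ± 0.58. Cst3, cystatin C, gave -0.26 ± 0.24. The standard errors show how wide a change these pools leave possible.

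Functional gene groups likewise held no called gene. Of 18 genes of MHC class II presentation 14 were tested, 5 positive and 9 negative, with a median of -0.13. H2-Ab1 gave -0.28 ± 0.22 and Cd74, the invariant chain, -0.18 ± 0.21. Of 23 MHC class I genes 13 were tested, 7 positive and 6 negative, with a median of 0.07. Of 29 maturation genes 10 were tested, 5 positive and 5 negative, with a median of -0.07. Ccr7, which guides dendritic cells into lymphatic vessels, gave -0.71 ± 1.46 and Fscn1, an actin bundler, 1.17 ± 1.07.

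Of 37 type I interferon response genes 8 were tested, 6 positive and 2 negative, with a median of 0.45. Slfn5 and Ifi27l2a (1.31 ± 0.61) were 2 of them, and Isg15 was under the filter with 25 counts in the positive set and 4 in the low set. Of 20 PGE2 receptor and cyclic AMP genes 5 were tested, 3 positive and 2 negative, with a median of 0.22. Nr4a2, a nuclear receptor induced by cyclic AMP, gave 1.10 ± 0.45. Its positive pools lay above its low pools in each of mice 1 to 3, as for 3.35% of all tested genes. Ptger4, which encodes the PGE2 receptor EP4, had 21 and 10 counts and was not tested.

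For the 7 tested interleukin-1 and inflammatory genes the median was -0.20, with Il1b at -0.20 ± 0.38. For the 4 Ifitm genes it was -0.38, with Ifitm1 at -0.34 ± 0.45. The 14 tested immediate early and heat shock genes, which respond to handling, had 4 positive and 10 negative values and a median of -0.17. All 5 tested cell cycle genes were negative, with a median of -0.41, and Tubb5, a tubulin, gave -0.59 ± 0.56. Of 15 tested lysosome and lipid genes 4 were positive and 11 negative, with a median of -0.19. Of the pDC genes, Tcf4 (above), Plac8 (0.70 ± 0.56), Bst2 (0.49 ± 0.80) and Rnase6 (-0.51 ± 0.63) were tested. Of the monocyte genes, Ly6a (2.33 ± 0.92, tested only through mouse 4), Plac8, Nr4a1 (-0.39 ± 0.81) and Lyz2 (-1.26 ± 0.65) were tested. Of the macrophage genes, Apoe was tested. None was called. No T or NK cell, B cell, or melanoma and stroma gene passed the filter.

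General features of the libraries were compared as well, and none passed its test. After thinning each library to 25571 counts, the positive pools held 4970 ± 273 genes (SD, n = 7) and the low pools 4829 ± 207 (SD, n = 5). An exact two-sided permutation within mice gave p = 0.519. Mitochondrial counts were 5.32% ± 1.30 and 5.26% ± 0.79, with a mean difference within mice of 0.96 percentage points (exact permutation p = 0.185). Without pool 2-1 that difference was 0.36 percentage points. Ribosomal protein counts were 16.3% ± 1.34 and 15.6% ± 1.31 (exact permutation p = 0.444). The share of pseudogene rows was 10.9% ± 1.51 and 11.7% ± 1.16 (exact permutation p = 0.407). Over these 4 measures every adjusted p was 0.519. With 27 arrangements the smallest p the design allows is 0.037.

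Likeness between pools is given as a description. The median Pearson correlation of log2(CPM + 50) over the tested genes was 0.814 for the 6 pairs of the same mouse and set, and 0.816 for the 6 pairs of the same mouse and different sets. It was 0.822 for 25 pairs of different mice and the same set, and 0.806 for 29 pairs of different mice and sets. The 4 medians lie close together, and the pairs share pools.

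The same 4 genes and threshold were applied to the 11 PGE2-deficient pools, which had no part in the rule. Only 2 pools were positive. Pool 2-2 had 12 marker counts (4 of Cd209a, 7 of Mgl2, 1 of Sirpa) and pool 3-3 had 12 (1 of Cd209a, 8 of Mgl2, 3 of Sirpa). Depth entered here too. Pool 3-3 was the deepest of all libraries, at 98554 counts, and its markers came to 122 CPM (95% interval 62.9 to 213). That is under the 145 and 171 CPM of the marker-low control pools 2-2 and 2-3. The PGE2-deficient pool 2-2 held 233 CPM (120 to 407). The other 9 pools held 10 counts in all. Clec10a was at 0 in both positive pools, although Mgl2 was the leading gene there.

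Other cell types were again present beside the markers. The 2 positive pools had 14 and 13 T cell marker counts and 8 and 20 monocyte counts, but only 1 and 0 pDC counts. Among the 9 low pools, T cell counts were found in 1 pool, at 29, and monocyte counts ran from 0 to 8. In the controls, by contrast, pDC counts of 15 to 45 were found in 4 of the 7 positive pools. The cDC1 markers summed to 2395 and 3397 CPM in the positive and 2808 to 4241 CPM in the low PGE2-deficient pools.

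Of 1718 genes tested in the PGE2-deficient pools with the mouse as a block, 0% were called in edgeR. Only mice 2 and 3 held both sets there, with 1 positive pool each. The fold changes therefore rest on pool 2-2 against 2-3 and pool 3-3 against 3-1 and 3-2. At an unadjusted p under 0.05 there were 65 genes, and the smallest adjusted p was 0.921. DESeq2 called 0 genes, with 35 at an unadjusted p under 0.05. Wfdc17 gave -0.09 ± 0.56 there, against 1.45 ± 0.35 in the controls. The difference of -1.53 had an unadjusted p of 0.0301 and an adjusted p of 0.999 (edgeR interaction). Fcer1g gave 0.89 ± 0.57, Prdx1 0.48 ± 0.40, Rtn4 -0.13 ± 0.59, Irf8 -0.27 ± 0.30 and Nop10 1.46 ± 0.60. Ccr7 gave -4.35 ± 1.05, with an adjusted p of 0.921. Over 1220 genes the interaction between set and tumour was called for 0, with 18 at an unadjusted p under 0.05.

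**Figure D4:**
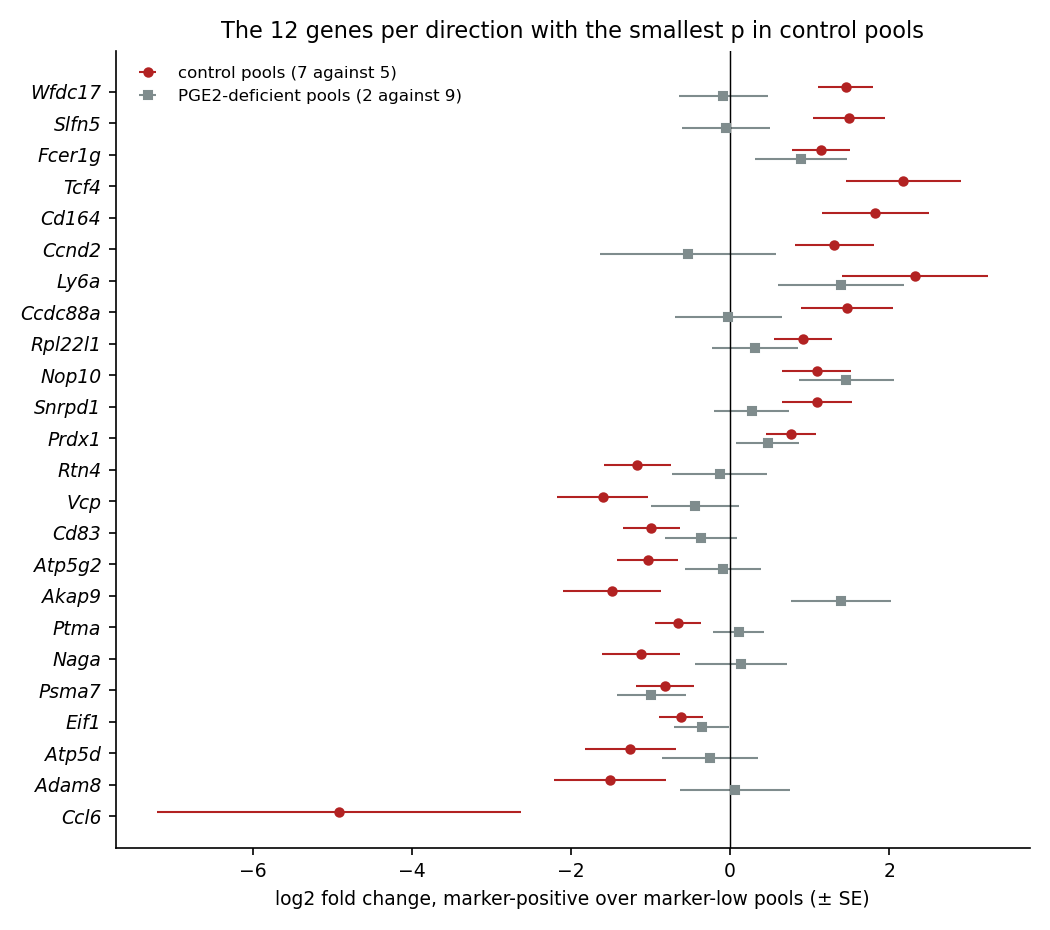
Log2 fold change of marker-positive over marker-low pools, with bars of 1 standard error, for the 12 genes per direction with the smallest p in the control pools (circles) and for the same genes in the PGE2-deficient pools (squares). The genes were picked for their control values; Wfdc17 stands at 1.45 in the controls and -0.09 in the PGE2-deficient pools, and Tcf4, Cd164 and Ccl6 have no PGE2-deficient value because they were too low to be tested there.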

How the data were processed

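The authors deposited 1 table of raw, unnormalized counts for each gene and library, all of them whole numbers. Reads were aligned with STAR 2.5.4b to GRCm38 (mm10), per the submitters' processing notes. How reads were counted, and whether by molecular identifier, is not given in the sources used here. Of 13572 gene rows, 13567 were found in GENCODE M21 by identifier, and 16 symbols turned into dates were restored.

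The 12 control libraries (25571 to 57523 counts) were divided by the raw marker sum, with a threshold of 10. Genes with at least 60 counts in all and a count in at least 3 libraries (1283 genes, 75.1% of the counts) were tested with edgeR 4.0.16 in R 4.3.3 (TMM, quasi-likelihood F-test, mouse as block, two-sided, Benjamini-Hochberg over all tested genes, threshold 0.05). Replicate numbers mark the mouse, so the block pairs pools of 1 animal. Over the libraries, limma-voom 3.58.1 estimated a correlation of -0.06 within mice. DESeq2 1.42.0, other filters, scalings, thresholds and left-out pools were alternatives. CPM of marker sums use library totals, and those of tested genes use TMM-scaled totals.

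Named genes were the 12 with the smallest p in each direction (none being called, and leaving out predicted genes, mitochondrial and ribosomal RNA rows and antigen receptor segments), a fixed panel, and the 2 members of each list with the smallest p or, for other cell types, the highest level. Other list members given in the text were named after their values were seen. The pools, genes and lists were chosen with earlier results of these data known. Pools of a mouse are technical replicates per the labels, so p-values measure the spread between pools and not between animals. One member of the pDC and monocyte lists, and the medians over those lists, are not reported here.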

Additional observations from a re-analysis of the deposited data

Results flagged for a closer look

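Of 58 groups of pools checked for a single value far from the rest, 14 held one. The check is set to flag about 1 in 20 groups of normally distributed values. Raw counts and CPM of low genes are not such values. A single count is flagged where the other pools of a set have no count, as for monocyte markers in pool 3-2. The 14 flagged groups are therefore not compared with a number due to chance, and groups of pools share libraries. In the marker-positive set, pool 4-1 stood apart for macrophage marker counts (71), monocyte marker counts (29), Ccl6 (887 CPM) and Rtn4 (266 CPM). Pool 1-2 stood apart for T cell marker counts (11) and for Slfn5 (1297 CPM, against a median of 278 in the other positive pools). In the marker-low set, pool 2-2 stood apart for macrophage marker counts (49) and Eif1 (1054 CPM). Pool 2-3 stood apart for Tcf4 (157 CPM) and Vcp (78.5 CPM), and pool 1-1 for Akap9 (216 CPM) and Ccl6 (378 CPM). Pool 1-3 stood apart for Wfdc17 (837 CPM, against a median of 247), and pool 3-2 for its 1 monocyte marker count.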

How the results depend on the processing

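The counts of called genes were recomputed under 38 alternatives for the control pools. With no replicate block, which compares pools without pairing them by mouse, edgeR called 0 genes higher and 0 lower, with 78 at an unadjusted p under 0.05. With no count filter, 2 genes were called higher (Il7r, Hspa1b) and 3 lower (Apoe, Gm5483, 2010005H15Rik) of 12397. Without the pools with macrophage, pDC or T cell counts, 1 was higher (Plac8, log2 fold change 5.49) and 1 lower (AW112010), but only mouse 2 kept both sets, so these calls compare pool 2-1 with pool 2-3. Leaving out 1 pool at a time gave 0 to 1 genes higher (Wfdc17, without pool 1-3) and 0 lower. Other scalings, tools, thresholds and mice left out gave 0 in both directions. The fits without the pools with 10 or more pDC counts and without those with 10 or more macrophage counts, were chosen after seeing the data and also gave 0. In the PGE2-deficient pools, DESeq2 and the fit with no replicate block, added likewise, called 0, and leaving out 1 pool gave 0 to 2 calls (2 without pool 3-3, 1 without pool 4-2). Of the 24 genes with the smallest p, 9 kept their sign under every alternative in which they were tested. At a threshold of 20 counts, which left 2 positive pools and 1 mouse with both sets, Wfdc17 was -0.36 and Fcer1g -0.15. The depth of about 46257.5 counts per pool left most cDC2, pDC and monocyte markers too low to be tested.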
